A study of Mus musculus with 4 samples.

Results

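Oxidative phosphorylation was examined in mouse kidney through the nuclear genes that encode its machinery. Members were the gene array probes whose gene name begins as the subunits of complexes I to V do (Nduf, Sdh, Uqcr, Cox4 to Cox8, Atp5), together with Cyc1 and Cycs. The muscle and brown fat isoforms Cox7a1 and Cox8b were left out of the membership. This rule, which uses names and no measured value, found 119 of 41174 probes, for 83 of 27574 gene names. Of these, 35 belong to complex I, 4 to complex II, 8 to complex III, 15 to complex IV, 15 to complex V and 1 is cytochrome c. The other 5 names (Ndufaf1, Ndufa12l, Atp5s, Cox4nb and Cox7a2l) meet the rule by spelling but are assembly factors, related proteins or, for Cox4nb (now Emc8), a gene of another function.

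Total RNA came from kidneys of Th3 mice, in which both adult beta-globin genes, beta-major and beta-minor, are deleted as a model of beta-thalassemia, and from kidneys of control mice. The 4 Th3 and 4 control samples were hybridised in pairs on 4 two-colour arrays, with Th3 in Cy5 on arrays 1 and 2 and in Cy3 on arrays 3 and 4. The labels give neither age, sex nor the number of deleted chromosomes, and leave unstated whether samples are separate animals. The fit held a term for dye orientation (the dye term). So p-values measure only the spread within arrays 1 and 2 and within arrays 3 and 4, which may be technical. Each SD runs over all 4 arrays and also holds the difference between these pairs of arrays. As a check of the labels, the adult beta-globin gene Hbb-bt had a log2 ratio of Th3 over control of -3.56 ± 0.48 (SD, n = 4) and was lower on all 4 arrays. The share of probes that the scanner software marked as well above background was 61.8% to 72.2% per channel, and saturated spots numbered 0.

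The respiratory chain sits in the inner mitochondrial membrane. Complex I accepts electrons from NADH and complex II from succinate. Ubiquinone carries them to complex III, cytochrome c carries them on to complex IV, and complex IV reduces oxygen. Complexes I, III and IV pump protons, and complex V, the ATP synthase, uses the proton gradient to make ATP. A few subunits are encoded in mitochondrial DNA and the rest in the nucleus. In the kidney the proximal tubule and the thick ascending limb, which drive ion and solute transport, are rich in mitochondria.

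Several sequences anchor the results. Uqcrc1 had the largest difference of all members, and its second probe is shown because its 60 bases cover 480 bases of the genome and so bridge an intron. It lies at chr9:108805900-108806379 on the plus strand of mouse build mm8. The Cyc1 probe, the member with the smallest spread over arrays, lies at chr15:76172763-76172822 on the plus strand. The brightest Cycs probe, which gave another answer than the dimmer probes of that gene, lies at chr6:50494842-50494901 on the minus strand. The files give no exon or UTR for these positions, and none was assigned.
Uqcrc1 second probe: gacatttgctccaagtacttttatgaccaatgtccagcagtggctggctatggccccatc
Cyc1 probe: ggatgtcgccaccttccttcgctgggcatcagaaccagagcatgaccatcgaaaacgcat
Cycs brightest probe: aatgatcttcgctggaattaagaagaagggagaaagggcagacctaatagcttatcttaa

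Most members differed little between Th3 and control kidney. Of 83 genes 81 were tested, and 3 were higher and 10 lower in Th3 kidney (limma, Benjamini-Hochberg adjusted p below 0.05 over all 17629 genes tested, here termed called). That is 16.0% of the members, against 21.5% of all genes tested. Higher calls made up 10.9% of all genes tested and lower calls 10.6%. The members' median log2 ratio was -0.07, against 0.00 over all genes tested. It was 0.01 on array 1, -0.05 on array 2, -0.18 on array 3 and -0.06 on array 4. Below 0 lay 57 of the 81 members by loess normalisation, but with median centring of each array the members' median was 0.01, against 0.02 over all genes, so its sign turned.

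The sizes were small. The log2 ratio lay within 0.2 of 0 for 65 members and within 0.3 for 75, and only Uqcrc1 passed 0.5. Standard deviations over the 4 arrays ranged from 0.02 for Cyc1 to 0.58 for Uqcrh, with a median of 0.17. Of the 68 members that were not called, 67 had a 95% confidence interval that stayed within 0.5 log2 units of 0, a 1.41-fold difference. The exception was Cox6a2. Like the p-values, these intervals leave out the difference between the pairs of arrays. Uqcrh, with 0.60, 0.48, -0.45 and -0.46 by array, had an interval of -0.09 to 0.17. The signals of Th3 and control samples did not overlap for 15 members with Th3 below and 6 with Th3 above, against 9.62% and 11.4% of all genes tested. The ratio had 1 sign on all 4 arrays for 16 members on the lower side and 6 on the higher side, against 17.4% and 19.7% of all genes.

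**Figure D1:**
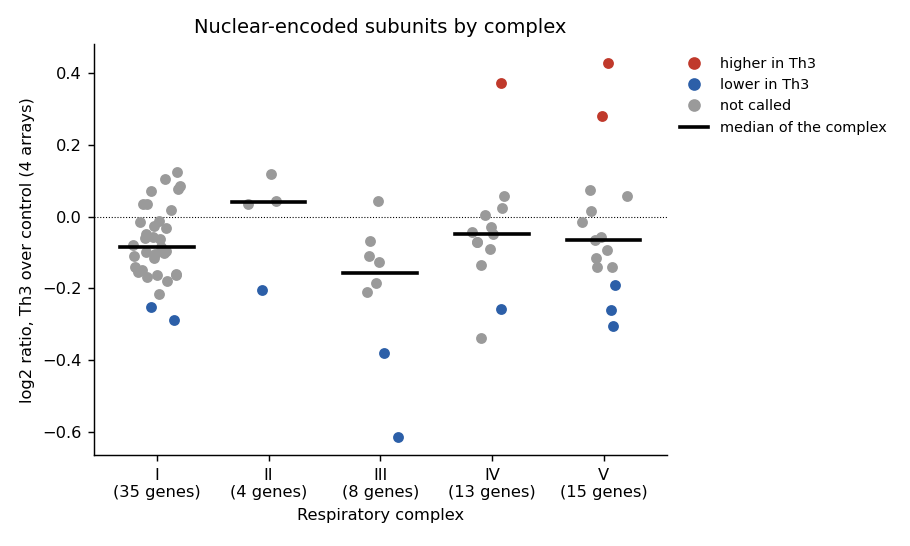
Mean log2 ratio of Th3 over control kidney (vertical axis, 4 arrays) for each tested subunit, grouped by respiratory complex (horizontal axis, with the number of genes). Red points are called higher in Th3, blue points called lower and grey points not called; black bars are medians, of which that of complex III, -0.16, is the lowest and Uqcrc1 at -0.61 is the lowest single gene.

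Complex III held the members with the largest decreases. Of its 8 genes 2 fell and none rose (25% called, against 21.5% of all genes tested). The median log2 ratio was -0.16 (by array -0.10, -0.18, -0.33 and -0.29). With median centring that median was -0.07. Without Uqcrc1 and Cyc1 the other 6 genes had a median of -0.12 and no call. No test compared one complex with another.

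Uqcrc1 encodes core protein 1 of complex III, part of the large matrix-facing portion of the enzyme. Its log2 signal was 14.90, 14.88, 14.71 and 14.63 in Th3 kidney on arrays 1 to 4, against 15.29, 15.29, 15.48 and 15.51 in control kidney. Every Th3 sample lay below every control sample. The log2 ratio was -0.40, -0.41, -0.77 and -0.88 on the 4 arrays, a mean of -0.61 ± 0.25 (SD, n = 4, limma adjusted p = 0.00173), which put Th3 at 65.4% of control. The second probe, printed above, gave -0.66, -0.68, -0.78 and -0.75, a mean of -0.72 ± 0.06. So the probes agreed in direction on every array, and the pair of arrays with Th3 in Cy3 had the larger difference by either probe.

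Cyc1 encodes cytochrome c1, the haem protein through which complex III hands electrons to cytochrome c. Its log2 signal was 14.39, 14.49, 14.53 and 14.67 in Th3 kidney, against 14.76, 14.90, 14.90 and 15.04 in control kidney. All Th3 samples were below all control samples. The ratio was -0.37, -0.41, -0.37 and -0.37, a mean of -0.38 ± 0.02 (SD, n = 4, limma adjusted p = 0.00567), or 76.8% of control. The remaining complex III genes were not called. Uqcrc2, core protein 2, had -0.21 ± 0.26, with 0.06 on array 2, and Uqcrfs1, the Rieske iron-sulphur protein, had -0.07 ± 0.08. The hinge protein gene Uqcrh, named after its values were seen, had 0.04 ± 0.58.

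**Figure D2:**
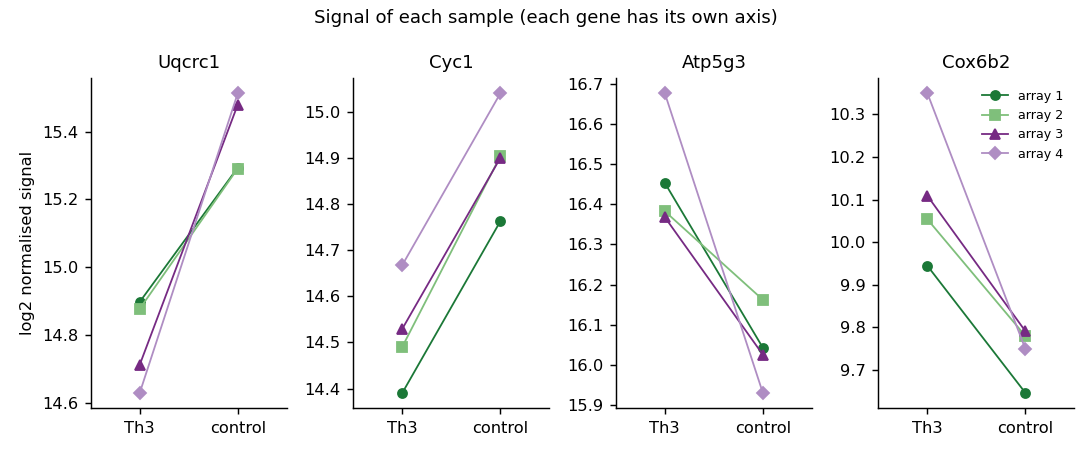
Log2 normalised signal (vertical axis, a separate range for each gene) of the Th3 and the control sample of each array, joined by a line, for Uqcrc1, Cyc1, Atp5g3 and Cox6b2. Th3 samples lie below control samples on 4 of 4 arrays for Uqcrc1 and Cyc1 and above them on 4 of 4 for Atp5g3 and Cox6b2.

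Cytochrome c, the mobile carrier between complexes III and IV, gave different answers by probe. The brightest probe of Cycs had a log2 ratio of -0.12 ± 0.17 (by array -0.10, -0.36, -0.09 and 0.06) and was not called. The 2 dimmer probes, at chr6:50494109-50494168 and chr6:50494129-50494188, share a stretch of 40 bases. They had -0.43 ± 0.07 and -0.45 ± 0.11 and were called in a fit over single probes (limma adjusted p = 0.00540 and 0.00572). Both were lower on 4 of 4 arrays. In that fit 18.2% of all 26434 kept probes were called, and 16 member probes were lower and 3 higher. Lower calls made up 8.92% of all kept probes. Cycs has processed copies elsewhere in the mouse genome, and whether the brightest probe also reports such copies was not tested.

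Complex IV, cytochrome c oxidase, had 13 of 15 genes tested, of which 1 rose and 1 fell (15.4% called, against 21.5% of all genes tested). Its median was -0.05 (by array 0.06, -0.04, -0.21 and 0.16). With median centring that median was 0.02. Ndufa4, named for complex I but a subunit of complex IV, fell. Its log2 signal was 15.38, 15.33, 15.28 and 15.40 in Th3 kidney, against 15.58, 15.69, 15.64 and 15.51 in control kidney, with no overlap. The ratio averaged -0.26 ± 0.12 (SD, n = 4, limma adjusted p = 0.0359).

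Several subunits of complex IV exist as tissue isoforms, and the pairs were compared. Cox6b2, known as the testis isoform of Cox6b, rose. Its log2 signal was 9.94, 10.05, 10.11 and 10.35 in Th3 kidney, against 9.65, 9.78, 9.79 and 9.75 in control kidney. Each Th3 sample lay above all control samples, and the ratio averaged 0.37 ± 0.15 (SD, n = 4, limma adjusted p = 0.0110), or 1.29-fold. Its widely expressed counterpart Cox6b1 had -0.05 ± 0.23 and was not called. Cox6a1, the widely expressed form, had -0.13 ± 0.50, and Cox6a2, the heart and muscle form, had -0.34 ± 0.49, with -0.89 on array 2 and 0.17 on array 4. Neither was called. Cox4i1 had -0.07 ± 0.13, Cox7a2 had -0.03 ± 0.17 and Cox8a had 0.01 ± 0.23, all not called. Cox4i2, the isoform of Cox4 tied to low oxygen in lung, was not tested, since its signal cleared background on 1 array for Th3 and on 0 for control. Cox8c was not tested either, with 0 arrays in each channel. Cox7a2l, which takes part in joining complexes III and IV, had 0.21 ± 0.18 and was not called.

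Complex I, the largest, had 0 genes higher and 2 lower of 35, or 5.71%, against 21.5% called among all genes tested. Its median was -0.08 (by array 0.00, -0.07, -0.19 and -0.12). With median centring the median was 0.00. The 7 nuclear core subunits, which hold the flavin and the iron-sulphur clusters, had a median of -0.06 and no call. The 28 accessory subunits had a median of -0.09 and both calls. Ndufa1, an accessory membrane subunit, had log2 signals of 16.07, 16.07, 15.63 and 15.88 in Th3 kidney, against 16.17, 16.12, 16.29 and 16.21 in control kidney. The groups did not overlap, but arrays 1 and 2 differed by only -0.09 and -0.06, against -0.66 and -0.34 on arrays 3 and 4. Its mean was -0.29 ± 0.28 (SD, n = 4, limma adjusted p = 0.0300). Ndufa13, also known as GRIM-19 and named after its values were seen, had -0.25 ± 0.32 (adjusted p = 0.0373 by limma), with 0.08 on array 1. Ndufb2, likewise named afterwards, was not called by its brightest probe (-0.08 ± 0.08), while a dimmer probe had -0.45 ± 0.13 and was called. The assembly factor Ndufaf1, named afterwards too, fell by 0.22 ± 0.15 (limma adjusted p = 0.0460).

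Complex II, succinate dehydrogenase, also works in the citric acid cycle. Of its 4 genes, 1 fell and none rose (25% called, against 21.5% of all genes tested). The median was 0.04 (by array -0.10, -0.20, 0.34 and -0.01), or -0.03 without array 3. Sdhc, a membrane anchor, had log2 signals of 12.96, 13.01, 13.05 and 12.95 in Th3 kidney, against 13.18, 13.30, 13.14 and 13.17 in control kidney. The groups did not overlap, and the ratio averaged -0.20 ± 0.08 (SD, n = 4, limma adjusted p = 0.0432). The flavoprotein Sdha had 0.12 ± 0.30, the iron-sulphur protein Sdhb 0.04 ± 0.21 and the other anchor Sdhd 0.04 ± 0.29, none of them called. Sdhb and Sdhd were negative on arrays 1 and 2 and positive on arrays 3 and 4.

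Complex V, the ATP synthase, held calls in both directions: 2 higher and 3 lower of 15 (33.3% called, against 21.5% of all genes tested). Its median was -0.07 (by array 0.09, -0.01, -0.20 and -0.21). With median centring the median was 0.03. Both increases were in the membrane part. Atp5g3 encodes the c subunit of the rotor ring, a protein that Atp5g1 and Atp5g2 also encode. Its log2 signal was 16.45, 16.38, 16.37 and 16.68 in Th3 kidney, against 16.04, 16.16, 16.03 and 15.93 in control kidney, with no overlap. The ratio was 0.41, 0.22, 0.34 and 0.75, a mean of 0.43 ± 0.22 (SD, n = 4, limma adjusted p = 0.0141), or 1.35-fold. Atp5g1 and Atp5g2, named after their values were seen, had -0.09 ± 0.11 and 0.06 ± 0.15 and were not called. Whether Atp5g3 differs from them in its response was not tested.

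Atp5l, subunit g, had log2 signals of 14.74, 14.66, 14.65 and 14.65 in Th3 kidney, against 14.37, 14.34, 14.39 and 14.46 in control kidney. Every Th3 sample was above every control sample, and the ratio averaged 0.28 ± 0.08 (SD, n = 4, limma adjusted p = 0.0139). Atp5j2, subunit f, fell by 0.26 ± 0.10 (limma adjusted p = 0.0177) by its brightest probe, while a much dimmer probe had -0.06 ± 0.09 and was not called. In the catalytic F1 part, 2 of 5 genes fell and none rose (40.0% called, against 21.5% of all genes tested). Atp5d, the delta subunit, had log2 signals of 13.62, 13.66, 13.65 and 13.68 in Th3 kidney, against 13.81, 13.82, 13.86 and 13.89 in control kidney, a ratio of -0.19 ± 0.03 (SD, n = 4, limma adjusted p = 0.0418). Atp5e, the epsilon subunit, named after its values were seen, had -0.31 ± 0.35 (limma adjusted p = 0.0159), with 0.01 on array 1 and -0.71 on array 3.

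**Figure D3:**
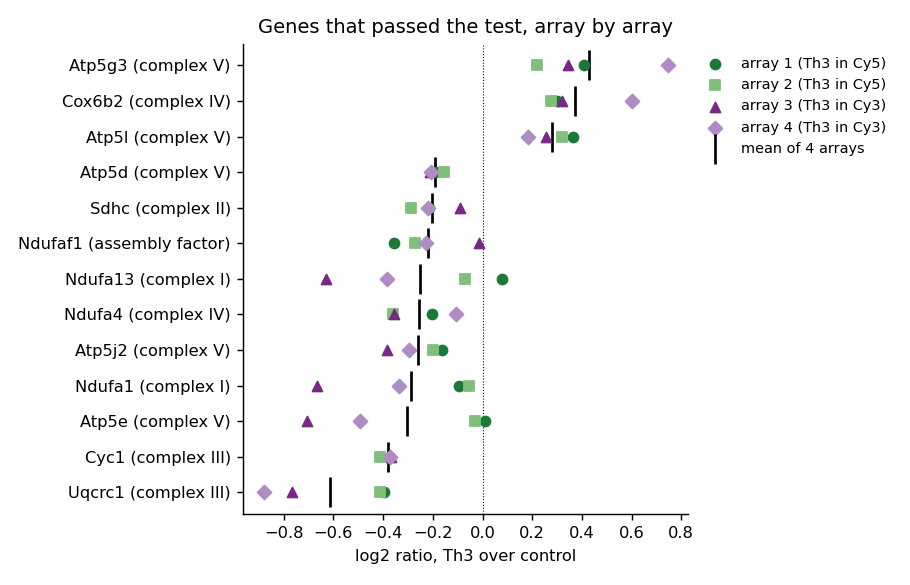
Log2 ratio of Th3 over control (horizontal axis) on each of the 4 arrays, 1 symbol per array, for the 13 called members, with the mean as a black bar. Cyc1 and Atp5d vary little between arrays, while Uqcrc1, Ndufa1, Ndufa13 and Atp5e lie further below 0 on arrays 3 and 4, where Th3 was in Cy3, than on arrays 1 and 2.

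Only Uqcrc1, Cyc1 and Cox6b2 stayed called under all 15 alternative settings, where their highest adjusted p-values by limma were 0.0224, 0.0272 and 0.0449. Atp5g3 lost its call when the array pair was a random block (limma adjusted p = 0.0548), as Atp5l did there and without array 1. Each of the other 8 called members lost it with Agilent's processed signals, with median centring and with the random block, and under 4 to 9 settings in all. Of these 8, Atp5e alone stayed called whichever array was left out, and Atp5j2 alone stayed called without the dye term. Sdhc and Atp5d lost the call without any 1 of the arrays, Ndufaf1 without array 1, 2 or 4, and Atp5j2 without array 1, 2 or 3. Ndufa4 and Ndufa13 lost it without array 2 or 3, and Ndufa1 without array 1 or 3. The normalisation split the calls differently: with median centring 4 members were higher and 2 lower, against 3 and 10 with loess, and among all genes 1936 were higher and 1144 lower, against 1927 and 1866 with loess.

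The arrays fell into pairs by dye orientation, and many members moved with the pair. Of the 81 tested members, each read by its brightest kept probe, 69 were above the 90th percentile of brightness among all genes tested. The ratio was above 0 on arrays 1 and 2 and below 0 on arrays 3 and 4 for 14 members (17.3%), against 9.11% of all genes, and ran the other way for 4, against 5.63% of all genes. The dye term was called for 2 members, Uqcrh and Atp5b, against 0.993% of all genes. Uqcrh had 0.60, 0.48, -0.45 and -0.46 on arrays 1 to 4, so its mean near 0 joins differences of opposite sign. Atp5b, the catalytic beta subunit, had 0.30, 0.26, -0.41 and -0.62. The dye and the kidneys hybridised in each pair cannot be told apart.

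**Figure D4:**
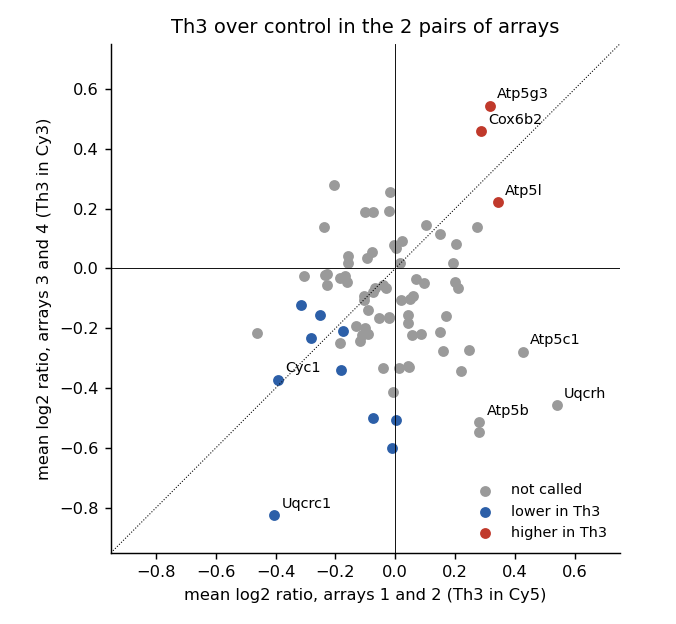
Mean log2 ratio of Th3 over control on arrays 1 and 2 (horizontal axis, Th3 in Cy5) and on arrays 3 and 4 (vertical axis, Th3 in Cy3) for the 81 tested members, coloured by call; the dotted line marks equal values. Uqcrc1, Cyc1, Atp5g3, Cox6b2 and Atp5l have the same sign in both pairs, and Uqcrh and Atp5b have opposite signs.

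**Figure D5:**
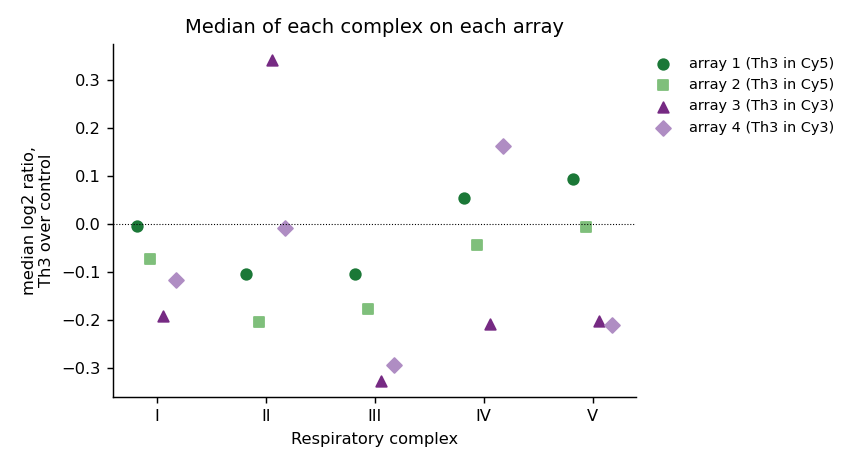
Median log2 ratio of Th3 over control (vertical axis) over the tested genes of each complex (horizontal axis), 1 symbol per array. Complex III lies below 0 on 4 of 4 arrays, from -0.10 to -0.33. Complex I runs from 0.00 to -0.19 by loess normalisation (its median with median centring was 0.00), while complexes II, IV and V have arrays on both sides of 0.

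Promoter sequences were searched for sites of factors known to act on respiratory chain genes. RefSeq windows from 250 bases before to 50 bases after the annotated start (assembly GRCm38.p6) were found for 67 member genes. Uqcrc1 and Atp5g3 are shown because they were the called members with the motif of NRF1, the nuclear respiratory factor (the letters GCGCA and GCGC with any base between them, both strands). Capitals mark that motif and, in Atp5g3, also the motif of the estrogen-related receptors (ERR, TCAAGGTCA, both strands). The Uqcrc1 window is chr9:108936398-108936697 on the plus strand and holds the NRF1 letters 2 times, beginning 5 and 30 bases past the start. The Atp5g3 window is chr2:73911277-73911576 on the minus strand, and the motifs do not overlap.
Uqcrc1 promoter: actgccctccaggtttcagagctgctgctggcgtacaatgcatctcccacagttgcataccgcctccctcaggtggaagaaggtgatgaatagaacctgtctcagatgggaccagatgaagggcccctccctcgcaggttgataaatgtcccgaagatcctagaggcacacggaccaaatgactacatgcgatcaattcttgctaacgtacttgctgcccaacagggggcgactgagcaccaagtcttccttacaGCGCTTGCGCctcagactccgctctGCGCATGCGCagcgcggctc
Atp5g3 promoter: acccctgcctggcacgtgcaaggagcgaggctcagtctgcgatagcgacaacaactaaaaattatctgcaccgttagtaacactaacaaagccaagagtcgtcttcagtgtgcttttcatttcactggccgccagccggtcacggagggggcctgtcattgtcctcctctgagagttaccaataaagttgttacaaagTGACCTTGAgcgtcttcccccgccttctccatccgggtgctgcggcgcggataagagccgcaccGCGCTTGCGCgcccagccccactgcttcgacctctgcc

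The NRF1 letters occurred in 17 of the 67 member genes with a window (25.4%), against 4.60% of all 32851 windows and 10.1% of the 11466 tested genes with one. The GABP letters (CCGGAAG, both strands) also occurred in 17, against 8.86% of all windows and 17.8% of the tested genes with one. The ERR letters occurred in 2 (2.99%), Atp5g3 and Sdhd, against 0.423% of all windows and 0.314% of tested genes. The YY1 letters (AAGATGGCG, both strands) occurred in 7 (10.4%), against 1.40% and 3.14%. Called and uncalled members both held the NRF1 letters: 2 of 11 called and 15 of 56 not called. The 2 called genes with it lay on opposite sides of 0, Uqcrc1 at -0.61 and Atp5g3 at 0.43. A match describes these letters in this window and is not evidence of binding.

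The regulators of these genes were described from a separate list. Of 25 tested of 26, 1 was higher and 5 lower, with a median of -0.04, so that 24.0% were called, against 21.5% of all genes tested. Perm1, a regulator in the PGC-1 and ERR pathway best known from muscle, fell by 0.71 ± 0.18 (limma adjusted p = 0.00300). Esrra, which encodes ERR alpha, fell by 0.34 ± 0.18 (limma adjusted p = 0.0134), while Esrrb, which encodes ERR beta, rose by 0.24 ± 0.08. Ppargc1a (PGC-1 alpha) had 0.06 ± 0.30, Nrf1 had 0.00 ± 0.15 and Gabpa had 0.15 ± 0.09, none of them called and all named after their values were seen. Among 10 genes of mitochondria linked to hypoxia-inducible factor, 2 rose and none fell (20% called, against 21.5% of all genes tested). Bnip3, a mitophagy receptor, rose by 1.05 ± 0.20, and Pdk1, which restrains pyruvate dehydrogenase, by 0.67 ± 0.20.

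Other mitochondrial groups were described in the same way, beside the 21.5% called among all genes tested. Of 39 tested assembly factors, 3 rose and 8 fell (28.2% called, median -0.08). Bcs1l, which inserts the Rieske protein into complex III, fell by 0.36 ± 0.08, and Cox17, a copper chaperone of complex IV, by 0.34 ± 0.20. Nubpl, an iron-sulphur assembly factor of complex I, rose by 0.36 ± 0.22, and Atpaf1, an assembly factor of the ATP synthase, by 0.20 ± 0.15. Of 19 genes of the citric acid cycle and pyruvate dehydrogenase, 1 rose and 6 fell (36.8% called, median -0.13). Pdha1, a subunit of pyruvate dehydrogenase, fell by 0.44 ± 0.09, while pyruvate carboxylase Pcx rose by 0.42 ± 0.24. Of 78 mitochondrial ribosomal protein genes, 2 rose and 10 fell (15.4% called, median -0.07). Mrps27 fell by 0.37 ± 0.06 and Mrps25 by 0.35 ± 0.22, while Mrps18c rose by 0.27 ± 0.12 and Mrpl3 by 0.23 ± 0.12. Of 23 import genes 1 rose (Tomm20, 0.38 ± 0.18) and 2 fell (Tomm40l, -0.32 ± 0.17, and Timm50, -0.31 ± 0.03), 13.0% in all. Of 17 carriers 1 rose and 2 fell (17.6% called). The aspartate and glutamate carrier Slc25a12 rose by 0.29 ± 0.08, while the citrate carrier Slc25a1 fell by 0.39 ± 0.16 and Ucp2 by 0.33 ± 0.11. Of 11 genes of ubiquinone and haem synthesis 1 rose and 2 fell (27.3% called). Hccs, which attaches haem to cytochrome c, rose by 0.21 ± 0.11, Coq2 fell by 0.25 ± 0.12, and Coq10b had -0.75 ± 0.55 with 0.05 on array 1. Bcs1l, Pdha1, Mrps27, Tomm20, Timm50, Slc25a1, Perm1, Bnip3 and Pdk1 stayed called under all 15 alternatives, Esrra and Pcx under 14, Nubpl, Ucp2 and Tomm40l under 13, and Mrps18c under 12. Esrrb and Slc25a12 stayed called under 11, Cox17, Mrps25 and Coq2 under 8, Mrpl3 under 7, and Atpaf1, Hccs and Coq10b under 6. Uqcr10, Ndufv3, Atp5md and Atp5mpl, subunits whose array names did not meet the rule, had -0.07 ± 0.11, -0.17 ± 0.21, -0.03 ± 0.17 and 0.01 ± 0.23, none of them called. The mitochondrial DNA genes named CYTB and COX2 on the array had -0.12 ± 0.15 and -0.07 ± 0.17 and were not called.

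Markers of the tissue were read beside these values. In whole kidney, fewer cells of a type and less RNA per cell cannot be told apart. All 16 proximal tubule markers were above background and tested, and 9 fell and 3 rose. Their summed normalised signal was 365538 to 419291 in Th3 kidney, against 427295 to 488542 in control kidney, so every Th3 sample lay below every control sample. Gatm fell by 0.83 ± 0.13 and Slc22a6 by 0.80 ± 0.11, whereas Slc6a19 rose by 0.76 ± 0.34. Thick ascending limb and distal tubule markers had 2 of 9 lower and none higher (22.2% called). Their median log2 ratio was -0.12, -0.16, -0.08 and -0.14 on arrays 1 to 4. Their summed signals followed the array pair: 309071, 279528, 240180 and 219274 in Th3 kidney, against 274534, 263350, 297300 and 316050 in control kidney. Thus the Th3 sum was the higher on arrays 1 and 2 and the lower on arrays 3 and 4. Collecting duct markers had 2 of 7 higher and none lower (28.6% called), with a median of 0.11. Their summed signals were 45639 to 63341 in Th3 kidney and 34247 to 49454 in control kidney. That sum was higher in Th3 than in the control sample of the same array on every array. Aqp3, a water channel, rose by 0.69 ± 0.15 and Scnn1a, a subunit of the epithelial sodium channel, by 0.46 ± 0.35. The part of tubule and collecting duct markers in the members' differences was not tested.

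Fat markers ran in both directions. Of 11 brown fat markers 7 were tested, and 3 fell and none rose (42.9% called, against 21.5% of all genes tested). Elovl3, Lhx8, Otop1 and Zic1 were not tested. The summed signal of the 7 tested ran from 12645 to 19462 in Th3 kidney and from 14062 to 50933 in control kidney. It was lower in Th3 than in the control sample of the same array on every array. Ucp1, the uncoupling protein of brown fat, had -4.02, -2.01, -3.78 and -3.80 by array. Cidea had -0.73, -0.01, -1.48 and -2.23 by array, and Cox8b, kept out of the membership, had -1.68, 0.02, -1.18 and -2.07. The other excluded isoform, Cox7a1, had -0.15 ± 0.06 and was not called. Of 9 markers of white and brown adipocytes 8 were tested (Lep was not), and 2 rose and none fell, with a median of 0.47. Adipoq, the adipokine adiponectin, had 1.29, 1.88, 1.31 and -0.47 by array, a mean of 1.00 ± 1.02, and Retn, resistin, rose by 0.64 ± 0.35. The summed signal of these 8 was 74633 to 101592 in Th3 kidney and 35173 to 107958 in control kidney, with Th3 lower on array 4 only.

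Macrophage markers had 5 of 6 lower and none higher (83.3% called, against 21.5% of all genes tested), and they followed the array pair. Their median log2 ratio was 0.06, -0.18, -0.64 and -0.87 on arrays 1 to 4. The summed signal was 21419, 13914, 13693 and 11084 in Th3 kidney, against 16898, 13459, 30206 and 35207 in control kidney, so that Th3 was the higher on arrays 1 and 2 and the lower on arrays 3 and 4. Pericyte and vascular smooth muscle markers had 4 of 8 higher and none lower, with sums of 27499 to 28304 in Th3 kidney and 15332 to 17400 in control kidney. The 5 podocyte, 5 endothelial and 4 tested striated muscle markers held no call. The part of fat, macrophages and pericytes in the members' differences was not tested.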

How the data were processed

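Scanner files hold spot and local background intensity values, per the file headers from Agilent Feature Extraction 9.5.3.1. Processed intensities and the log10 ratio of the channels, also per the file headers, served as an alternative and as a check of direction, and the other columns used are deposited flags for background and outliers. The authors also deposited a log2 ratio for each array, and how they normalized it is not given in the sources at hand. Scanner ratios turned to Th3 over control correlated with them at 0.78 to 0.90 across probes. The scanner software's log10 ratio correlated less closely with the loess-normalised ratios, at 0.59 to 0.73. Mean signals were corrected with normexp (offset 50) and loess (span 0.3, 4 iterations) in limma 3.58.1 under R 4.3.3. Outlier spots were set missing. A probe was kept if well above background on all 4 arrays in the Th3 or in the control channel, with values on at least 3 arrays, which left 26434 of 41174 probes. Each gene was represented by its brightest kept probe. The limma fit had a Th3 term and a dye term (2 residual and 4.52 prior degrees of freedom), and p-values were adjusted over 17629 genes. Any difference between the samples of the first pair of arrays (1 and 2) and the second pair (3 and 4) also enters the dye term. Signals per sample were scaled between arrays on average intensity (Aquantile). The number of arrays limits the precision.

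Members, gene lists, alternatives and the rule for named genes were chosen with earlier results of these data known. That rule took, in each complex, up to 3 called genes of 1 sign on every array in each direction, with Uqcrc1, Cyc1, Cycs, the Sdh genes, isoform pairs and members not tested. From each other list it took up to 2 called genes in each direction. A gene that the rule named is not reported here. Isoforms whose names met no probe were not analysed here. The script was tested on simulated data, and 15 alternatives were run, with 1 more added after the data were seen. Probe positions are on mm8, and promoters and current names are RefSeq's on GRCm38.p6.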

Additional observations from a re-analysis of the deposited data

Results flagged for a closer look

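Among 35 reported values checked for a single array far from the other three, 3 stood out by the gap to the nearest array as a share of the range. Chance flags about 1 in 20 such groups. Cyc1 had a gap of 0.958 of its range, with -0.41 on array 2 and -0.37 on each of the others, so the range itself was very small. Cox6b2 had 0.865, with 0.60 on array 4 against 0.27 to 0.32 on the others. Sdha had 0.832, with 0.57 on array 3 against -0.07 to 0.04 on the others.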

How the results depend on the processing

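The count of lower members was 10 and became 2 with Agilent's processed signals, 2 with median centring, 3 without the dye term, 2 with the pair of arrays as a random block and 6 with the authors' deposited ratios. Over all genes tested, the share of lower calls was 10.6% and became, in the same order, 8.79%, 6.49%, 5.04%, 3.14% and 10.7%. Leaving out 1 array gave 4 to 8 lower members, against 7.07% to 8.96% of all genes. The count of higher members was 3, became 1 with the random block, and ran from 2 to 6 when 1 array was left out. Over all genes, higher calls made up 10.9%, 3.66% with the random block and 7.52% to 9.14% when 1 array was left out. The count of higher members was 6 without array 4, which then included Sdha, Ndufb5 and Cox7a2l. Lower members numbered 4 without array 2, 6 without array 1 or array 3, and 13 with the mean of all kept probes. The median log2 ratio of complex I moved to 0.00277 with median centring. No direction that had been called was reversed. Counting Ndufa4 in complex I, a choice made after the data were seen, gave medians of -0.09 for complex I and -0.05 for complex IV. The median of complex II was -0.03 without array 3, against 0.04 with all arrays. The causes were not tested. The 81 tested members had passed the filter on signal over background, which Cox4i2 and Cox8c had not. With that filter required in both channels, 81 members were tested as well.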
